A study of Mus musculus with 6 samples.

Results

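Transcripts of 10 genes that mark the cells of brain blood vessels were followed in hippocampal RNA of wild-type and Tg(ORAI1)Ibd mice. Of these genes, 6 mark the endothelium (Cldn5, Pecam1, Flt1, Slco1a4, Slc2a1 and Abcb1a) and 4 mark the mural cells that wrap it (Pdgfrb, Rgs5, Acta2 and Vtn). They were picked by symbol as known markers, with earlier results of these data known, and are 10 of the 54838 genes in the count table. All 10 passed the filter on low counts, which left 19087 genes for testing. The libraries came from 3 wild-type females and 3 females of the line FVB/NJ-Tg(Orai1)Ibd, written here as Tg(ORAI1)Ibd, all aged 7 months. The transgenic mice carry a human ORAI1 coding sequence in the Thy1.2 cassette, which drives expression in neurons, and the line was made by pronuclear injection. Both genotypes carry the mouse Orai1 gene, and the labels name no treatment. Each library was made from the hippocampus of 1 mouse. Whether the same-numbered mice of both genotypes shared a litter or a preparation day is not given in the sources used here.

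Brain capillaries form the blood-brain barrier, in which endothelial cells are sealed to each other by tight junctions. Because little can slip between these cells, nutrients enter the brain through dedicated carriers, and many drugs are pumped back into the blood. Pericytes lie within the basement membrane of capillaries and keep the barrier in its mature state, whereas smooth muscle cells ring the arterioles and set their width. Orai1 encodes the pore subunit of the plasma membrane channel that admits calcium when intracellular stores run empty.

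The sequences upstream of 3 endothelial genes are shown because Cldn5 was the only one of the 10 genes that passed the test between genotypes in the same fit across all genes, Slc2a1 was the other gene whose genotype ranges did not overlap, and Flt1 varied least among wild-type mice. Sequences for 8 of the 10 genes were found in the RefSeq promoter table of GRCm38.p6. The 3 printed sequences run 5′ to 3′ on the strand of the gene and end at the base before its first annotated exon. For Abcb1a the RefSeq start lies far upstream of the gene start in the annotation used for counting. Capitals mark exact matches on either strand to AGGAAG (a core bound by ETS factors), TGACGTCA (the cAMP response element), GGGCGG (the GC box) or TATAAA (the TATA box).
Cldn5 promoter, chr16:18776597-18776846, plus strand: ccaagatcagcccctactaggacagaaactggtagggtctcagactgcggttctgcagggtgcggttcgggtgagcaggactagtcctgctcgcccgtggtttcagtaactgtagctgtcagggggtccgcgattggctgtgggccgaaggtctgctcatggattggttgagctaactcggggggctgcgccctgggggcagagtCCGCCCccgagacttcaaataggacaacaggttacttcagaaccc
Flt1 promoter, chr5:147726012-147726261, minus strand: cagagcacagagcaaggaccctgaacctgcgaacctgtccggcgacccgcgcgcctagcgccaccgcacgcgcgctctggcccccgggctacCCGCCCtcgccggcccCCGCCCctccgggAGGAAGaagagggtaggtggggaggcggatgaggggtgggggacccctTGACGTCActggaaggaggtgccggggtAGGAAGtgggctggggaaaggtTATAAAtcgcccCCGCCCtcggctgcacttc
Slc2a1 promoter, chr4:119108495-119108710, plus strand: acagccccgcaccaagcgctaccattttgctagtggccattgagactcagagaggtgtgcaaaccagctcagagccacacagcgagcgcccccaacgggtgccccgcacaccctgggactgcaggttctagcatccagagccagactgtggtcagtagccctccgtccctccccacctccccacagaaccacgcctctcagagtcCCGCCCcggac
The counts of matches refer to the full window of 300 bases, of which 250 lie before and 50 after the RefSeq start. A match to AGGAAG was present in 3 of the 8 windows and in 35.4% of the 32851 promoters searched. GGGCGG matched in 3 of 8 windows against 35.7% of all promoters, TATAAA in 3 of 8 against 13.6%, and TGACGTCA in 1 of 8 against 1.79%. Flt1 held all 4 kinds of match. These matches are letters in a window, and binding was not measured here.

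For Acta2, the smooth muscle actin gene, 2 stretches of 20 bases are shown because they hold matches to the CArG box, the site of serum response factor that is typical of smooth muscle genes. Capitals mark the match, read on either strand, and the search for this motif allowed 1 base other than A or T in the core between CC and GG.
Acta2 distal CArG match, chr19:34255443-34255462, minus strand: gaggtCCCTATATGGttgtg
Acta2 proximal CArG match, chr19:34255393-34255412, minus strand: ttgctCCTTGTTTGGgaagc
The matches lie 84 and 34 bases before the RefSeq start of Acta2. In the annotation used for counting, the gene spans chr19:34241090-34255590, so both stretches lie inside it. With that allowance, a match was found in 2 of the 8 windows and in 9.98% of all promoters searched.

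The libraries held 37414241 to 52497799 counts, and the 10 genes together took 0.0427% to 0.0650% of them. The Orai1 feature of the mouse annotation had 302 to 376 counts in wild-type and 11834 to 14620 counts in transgenic libraries, so the library labels matched the transgene. The hippocampal markers summed to 914 to 960 CPM in wild-type and 875 to 933 CPM in transgenic mice, where CPM are the counts divided by the scaled library size and brought to a common total. The summed level of 5 neuronal markers was 8163 to 8478 CPM in wild-type mice and 8368 to 9043 CPM in transgenic mice. Markers of choroid plexus epithelium, the secretory tissue beside the hippocampus, differed widely. All 20 of these markers fell in the transgenic mice, led by Tmem72, Slc4a5, Ttr and Kcne2, with summed levels of 4174 to 6353 CPM in wild-type mice and 686 to 1008 CPM in transgenic mice. Their part in the differences described here was not tested, and in whole tissue a smaller number of cells of a type and less RNA per cell cannot be told apart.

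The wild-type levels of the 10 genes were compared per exon length, as FPKM, the CPM divided by the exon length in kilobases (mean ± SD, n = 3). Vtn, which encodes vitronectin, an extracellular protein made in the brain by pericytes, had the highest level with 39.7 ± 7.67 FPKM, and its lowest wild-type value lay above the highest value of the next gene. Slc2a1, the glucose transporter of the barrier, followed with 25.7 ± 1.63 FPKM. Rgs5, a regulator of G protein signalling, had 19.8 ± 4.98 FPKM, Acta2 had 18.6 ± 7.14 FPKM, and Cldn5, the main claudin of brain tight junctions, had 15.2 ± 1.88 FPKM. Among Slc2a1, Rgs5, Acta2 and Cldn5, the ranges of neighbours in this order overlapped. A lower group began with Slco1a4, an organic anion transporter, at 7.56 ± 0.568 FPKM and Abcb1a, the efflux pump P-glycoprotein, at 7.17 ± 0.913 FPKM, which overlapped with each other. Pdgfrb, the PDGF receptor through which endothelium recruits mural cells, had 5.31 ± 0.270 FPKM, and Flt1, a VEGF receptor, had 4.77 ± 0.0814 FPKM. Pecam1, an adhesion molecule of endothelial contacts, was lowest with 3.53 ± 0.477 FPKM. The exon length counts every annotated exon of a gene, so a gene with several transcripts can have a lower FPKM than the transcript it mostly uses.

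**Figure D1:**
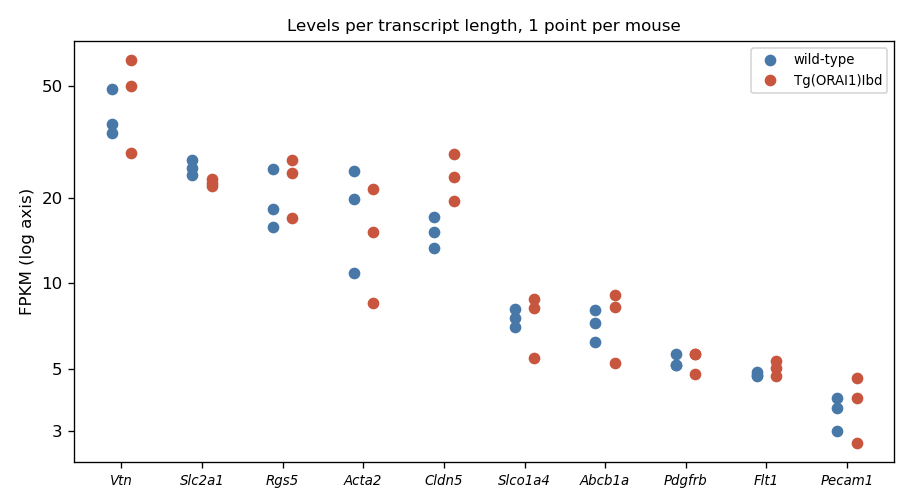
Level of each gene in FPKM on a log axis, with 1 point per mouse, 3 wild-type and 3 Tg(ORAI1)Ibd, ordered by the wild-type mean. Vtn lies highest at 39.7 FPKM and Pecam1 lowest at 3.53 FPKM in wild-type mice, and the Cldn5 points of the genotypes do not overlap.

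The comparison of genotypes asked whether expression of ORAI1 in neurons is accompanied by changes of transcripts that belong to the vessels. Cldn5 was up-regulated 1.58-fold in the transgenic mice, and the other 9 genes did not pass the test. Thus 1 of the 10 genes was called at an adjusted p under 0.05, beside 7.10% of all genes tested. Among all genes, 591 (3.10%) were called higher and 764 lower. With respect to sign alone, 7 of the 10 log2 fold changes were above zero and 3 were below. Their median was 0.072 on the log2 scale, against -0.010 for all genes tested.

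Cldn5 (ENSMUSG00000041378) is a gene with 1 annotated transcript on the plus strand at chr16:18776847-18778262 of GRCm38. It had 21.5, 18.9 and 24.2 CPM in the 3 wild-type mice and 27.7, 40.5 and 33.7 CPM in the 3 transgenic mice. Every transgenic value lay above every wild-type value, and mouse 2 was the highest of the transgenic mice. The log2 fold change was 0.66 ± 0.146 (SE), with a 95% interval of 0.32 to 1.00 and an adjusted p of 0.0430 by edgeR's quasi-likelihood test. The exact permutation test of the same 6 values gave p = 0.1, the smallest value that 3 against 3 can give. The call was lost when the trend of counts with GC content was removed from each library (log2 fold change 0.52, adjusted p = 0.129), and when that with gene length was removed (0.57, adjusted p = 0.0650). After the GC correction 2.30% of all genes were called. Cldn5 is GC-rich, with 60.5% in its transcripts. Over all genes tested, the median log2 fold change was 0.13 in the tenth of genes richest in GC and -0.18 in the tenth poorest in GC. The call was also lost without transgenic mouse 2 (adjusted p = 0.0851), transgenic mouse 3 (0.103), wild-type mouse 1 (0.147) or wild-type mouse 2 (0.136), while the log2 fold change stayed between 0.53 and 0.79. Few genes were called anywhere in those fits, with 11 to 62 higher and 66 to 130 lower over all genes.

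Slc2a1 (ENSMUSG00000028645, chr4:119108711-119137983, plus strand), which carries glucose across the endothelium, had 84.3, 95.7 and 89.8 CPM in wild-type mice and 77.1, 82.3 and 79.5 CPM in transgenic mice. The genotypes did not overlap here either, with every transgenic value below every wild-type value, and the spread was small. The log2 fold change of Slc2a1 was -0.18 ± 0.057 (SE; 95% interval -0.31 to -0.043), and its adjusted p of 0.0986 by edgeR's quasi-likelihood test did not pass. It passed in 1 alternative, with GC correction and replicate number as a block together (log2 fold change -0.26, adjusted p = 0.0351). Cldn5 and Slc2a1 were 2 of 10 genes without overlap, whereas 34.9% of all genes tested had no overlap between genotypes.

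**Figure D2:**
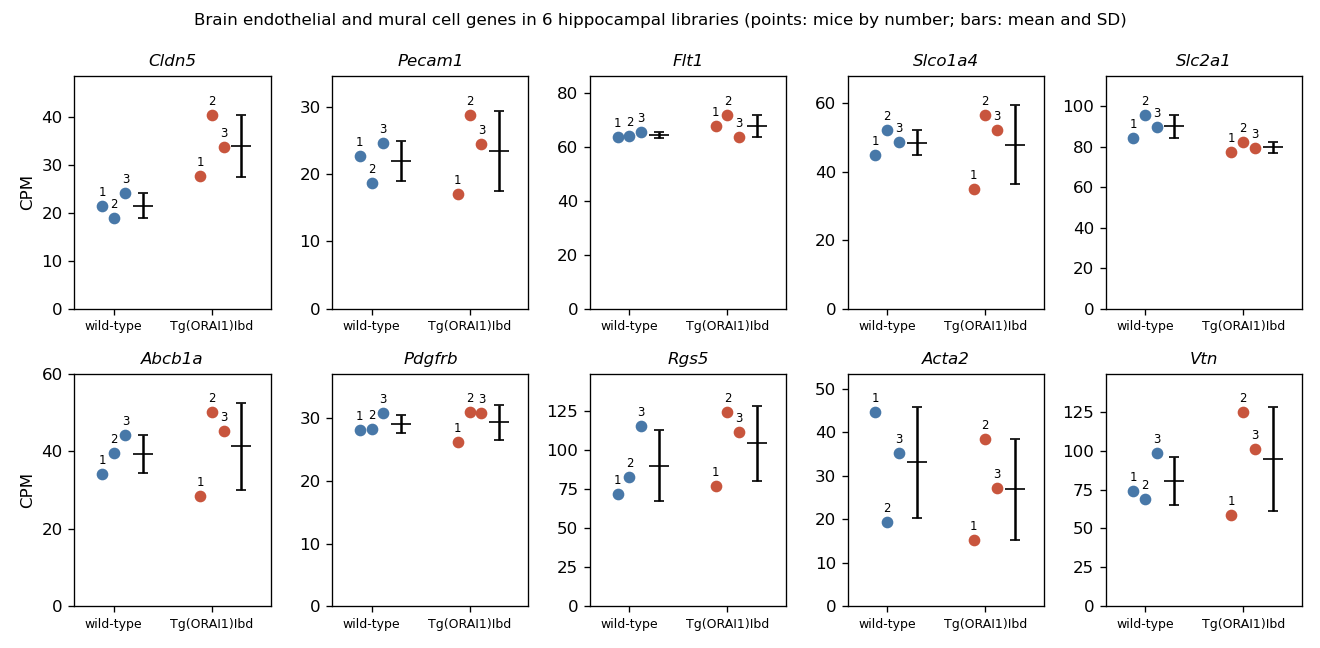
CPM of each of the 10 genes by genotype, with 1 numbered point per mouse and bars for the mean and SD (n = 3). Cldn5 values are 18.9 to 24.2 CPM in wild-type and 27.7 to 40.5 CPM in transgenic mice, Slc2a1 lies lower in every transgenic mouse, and the other 8 genes overlap.

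Flt1, which binds VEGF and limits its action, had 63.5, 64.1 and 65.6 CPM in wild-type mice and 67.8, 71.9 and 63.7 CPM in transgenic mice. Transgenic mouse 3 fell within the wild-type range. The log2 fold change of Flt1 was 0.074 with an interval of -0.052 to 0.20 (adjusted p = 0.415, edgeR's quasi-likelihood test). The value was 0.19 with gene length offsets and 0.14 without transgenic mouse 3. Pecam1 had 22.7, 18.7 and 24.5 CPM in wild-type mice and 17.0, 28.8 and 24.5 CPM in transgenic mice. The transgenic values of Pecam1 lay on both sides of the wild-type range, and the interval of the log2 fold change was wide, from -0.35 to 0.53.

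The remaining barrier transporters showed the same spread among transgenic mice. Slco1a4 had 44.8, 52.1 and 48.6 CPM in wild-type mice and 34.9, 56.7 and 52.3 CPM in transgenic mice. Abcb1a had 34.1, 39.6 and 44.1 CPM in wild-type mice and 28.6, 50.02 and 45.1 CPM in transgenic mice. In both genes, transgenic mouse 1 was the lowest and transgenic mouse 2 the highest of all 6 mice. The log2 fold changes were -0.018 (interval -0.40 to 0.37) for Slco1a4 and 0.070 (interval -0.39 to 0.53) for Abcb1a. Abcb1b, a related neighbour of Abcb1a, had a mean of 7.29 CPM in the wild-type group and 5.93 CPM in the transgenic group. How any reads that match both genes were divided depends on the aligner. Slc2a1 and Abcb1a also each overlap a small annotated gene on the same strand.

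Among the mural genes, 0 of 4 passed the test. Pdgfrb had 28.2, 28.3 and 30.8 CPM in wild-type mice and 26.2, 31.0 and 30.9 CPM in transgenic mice. These values were tight, and the log2 fold change was 0.013 with an interval of -0.17 to 0.20 (adjusted p = 0.935, edgeR's quasi-likelihood test). Rgs5 had 71.9, 83.0 and 115 CPM in wild-type mice and 77.4, 124 and 112 CPM in transgenic mice. Vtn had 74.0, 69.2 and 98.3 CPM in wild-type mice and 58.5, 125 and 101 CPM in transgenic mice. Both genotypes spread widely in these genes, with log2 fold changes of 0.21 (interval -0.28 to 0.71) and 0.23 (interval -0.37 to 0.84). Acta2, the actin of arteriolar smooth muscle, had 44.6, 19.4 and 35.3 CPM in wild-type mice and 15.1, 38.3 and 27.1 CPM in transgenic mice. Its interval of -1.18 to 0.57 was the widest of the 10 genes, with zero well inside it.

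**Figure D3:**
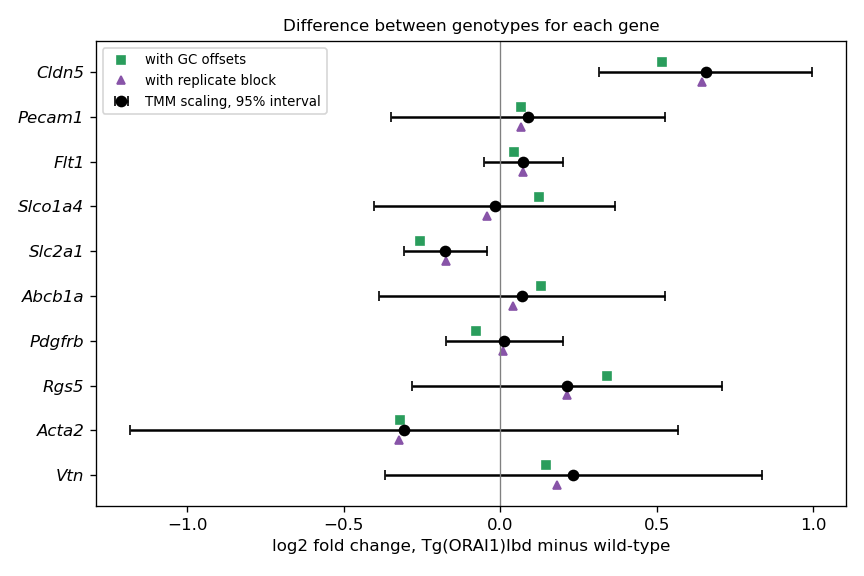
Log2 fold change of each gene, Tg(ORAI1)Ibd minus wild-type, with its 95% interval, and the same value after GC correction and with replicate number as a block. The interval of Cldn5 (0.32 to 1.00) and that of Slc2a1 (-0.31 to -0.043) do not include 0, the other 8 do, and the GC-corrected value of Cldn5 is 0.52.

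The level of Cldn5 relative to the other endothelial genes was examined in each mouse, a comparison chosen after the values were seen. The log2 ratio of Cldn5 to the mean of the other 5 endothelial genes was -1.06, -1.33 and -1.04 in wild-type mice. It was -0.49, -0.43 and -0.55 in transgenic mice. The transgenic mice were thus closer to each other in this ratio than in the CPM of Cldn5 itself. The difference was 0.66 on the log2 scale, and since Cldn5 was picked for its difference it carries no test.

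Mice of 1 genotype differed from each other in most of these genes. The coefficient of variation of Acta2 was 38.4% in wild-type and 43.2% in transgenic mice, that of Vtn 19.4% and 35.3%, and that of Rgs5 25.1% and 23.2%. The median over the 5512 tested genes in the same range of CPM was 4.16% and 5.08%, and counting error alone came to at most 3.76% for any of the 10 genes. In each genotype, 9 of the 10 genes varied more than this median. The lowest values were those of Flt1 in wild-type mice (1.71%) and of Slc2a1 in transgenic mice (3.22%). In the transgenic group the deviations had a common order. Mouse 2 was the highest transgenic mouse in 10 of 10 genes and mouse 1 the lowest in 9 of 10, the exception being Flt1. Over all genes tested, mouse 2 was highest in 31.2%, mouse 1 was lowest in 40.9%, and both held in 21.7%. The level in mouse 2 over that in mouse 1 ranged from 1.06-fold for Flt1 to 2.53-fold for Acta2. In the wild-type group, mouse 3 was highest in 7 of 10 genes.

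**Figure D4:**
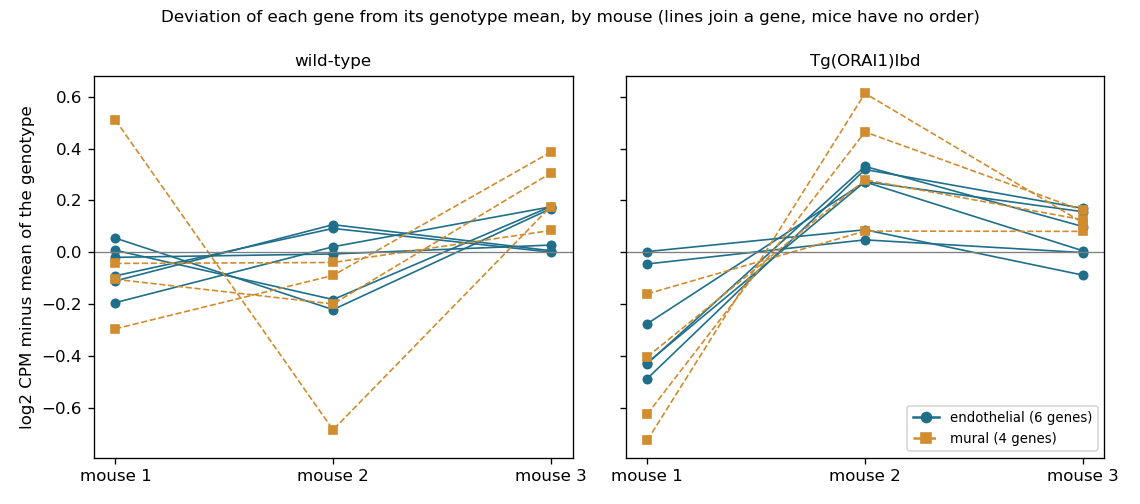
Deviation of each gene from the mean of its genotype, in log2 CPM, for each mouse, with 6 endothelial genes as solid lines and 4 mural genes as dashed lines. In the transgenic panel, mouse 2 is highest in all 10 genes and mouse 1 lowest in 9, and in the wild-type panel mouse 3 is highest in 7.

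The summed level of the 6 endothelial genes was 271, 289 and 297 CPM in wild-type mice and 253, 330 and 299 CPM in transgenic mice. That of the 4 mural genes was 219, 200 and 280 CPM in wild-type mice and 177, 318 and 271 CPM in transgenic mice. The genotypes overlapped in both sums. Over the 6 libraries, the median Pearson r of log2 CPM between genes was 0.321 for 15 pairs of endothelial genes, 0.595 for 24 endothelial and mural pairs and 0.774 for 6 mural pairs. For deviations from the mean of the genotype, the same medians were 0.592, 0.807 and 0.848. These correlations are descriptions over 6 libraries that share their depth and their dissection.

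Other markers of vessel cells were followed next. Over 5 further lists of brain endothelium, arterial endothelium, venous endothelium, pericytes and smooth muscle, 84 of 88 genes did not pass the test, 1 was called higher and 3 lower, beside 7.10% of all genes tested called in either direction. All 4 called genes belonged to the 40 further endothelial markers. Egfl7, a factor secreted by endothelium, was up-regulated from 21.3, 20.6 and 22.3 CPM to 24.7, 28.5 and 26.0 CPM (log2 fold change 0.30, adjusted p = 0.0468 by edgeR's quasi-likelihood test). Cgnl1, a junction protein, was down-regulated from 59.5, 48.8 and 52.7 CPM to 17.3, 30.6 and 27.5 CPM (log2 fold change -1.10, adjusted p = 0.0266 by the same edgeR quasi-likelihood test). Slco1c1, a thyroid hormone transporter of the barrier, and Palmd, which encodes palmdelphin, fell by 0.30 and 0.35 on the log2 scale. The call of Egfl7 was lost with total counts, limma-voom or gene length offsets. The calls of Egfl7, Slco1c1 and Palmd were lost after GC correction (adjusted p from 0.121 to 0.221 by the edgeR quasi-likelihood test), and that of Cgnl1 was kept (0.0380). With this correction Bsg, which encodes basigin, gained a call (log2 fold change -0.32, adjusted p = 0.0367). The balance of these calls was not stable. The 40 markers had 4 higher and 4 lower by DESeq2's Wald test, 3 and 3 with no filter on low counts, 2 and 2 with DESeq2 size factors, and 0 and 3 with limma-voom, total counts or gene length offsets. Without wild-type mouse 1 there were 0 and 0, beside 11 and 66 over all genes. The same held without wild-type mouse 2 (13 and 81 over all genes) or transgenic mouse 3 (19 and 89). Without transgenic mouse 1 there were 5 higher and 2 lower, beside 466 and 683 over all genes, and the venous list had 1 higher. The higher genes without that mouse were Egfl7 and, named after their values were seen, Slc16a1, Erg, Slco2b1 and Ly6c1, and in the venous list Ackr1. The choroid plexus markers fell in the same libraries, and their part in these differences was not tested.

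Arterial endothelium had 0 of 8 called and a median log2 fold change of 0.013, and venous endothelium had 0 of 8 called and a median of -0.082. The arterial median was below zero without wild-type mouse 3 (-0.039) or transgenic mouse 2 (-0.071), and was 0.024 to 0.058 without any other mouse. The venous median was above zero without transgenic mouse 1 (0.21) or wild-type mouse 3 (0.079) and was -0.23 without transgenic mouse 2. At an unadjusted p under 0.05, which 27.8% of all genes passed, these lists had 0 and 1 genes. Ackr1, a chemokine-binding receptor of venules, had 16.4, 17.1 and 21.7 CPM in wild-type mice and 22.5, 31.0 and 28.1 CPM in transgenic mice, without overlap (log2 fold change 0.56, adjusted p = 0.0576 by edgeR's quasi-likelihood test). The venous list also had 1 gene called higher by DESeq2's Wald test, with no filter on low counts and without wild-type mouse 3. Of 18 further pericyte markers 0 were called, with a median of 0.025, and 3 were lower at an unadjusted p under 0.05. The pericyte median was 0.14 without transgenic mouse 1. It was below zero without wild-type mouse 1 (-0.067), transgenic mouse 2 (-0.14) or transgenic mouse 3 (-0.0014). Of 14 further smooth muscle markers 0 were called, also at an unadjusted p under 0.05. In this list 13 of 14 log2 fold changes were below zero, with a median of -0.19. The median was above zero without transgenic mouse 1 (0.091) or wild-type mouse 1 (0.0074), and was -0.48 without transgenic mouse 2. For these 14 markers together, without Acta2, the summed levels overlapped between genotypes (100 to 151 CPM in wild-type, 74.2 to 159 CPM in transgenic mice). The 2 markers of endothelium without a barrier, neither of which was called, went in opposite directions. Plvap had a log2 fold change of 0.078 and overlapping genotypes. Esm1, named after its values were seen, had 14, 79 and 21 counts in the wild-type libraries against 2, 9 and 3 counts in the transgenic ones. The genotypes of Esm1 did not overlap, and its log2 fold change was -2.91 (adjusted p = 0.0895 by edgeR's quasi-likelihood test, and 0.0239 when no filter on low counts was used). Esm1 passed the filter only through its wild-type counts. It was not tested when at least 10 counts were required in every library. Its values are therefore a description and are no support for a difference.

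Signals that pass between vessel cells and their surroundings were examined next. Of 35 ligands and receptors of the VEGF, PDGF, angiopoietin, Notch, Wnt and related pathways, 2 were higher and 2 lower, beside 7.10% of all genes tested called in either direction. Their summed level was 987 to 992 CPM in the wild-type group and 949 to 958 CPM in the transgenic group, without overlap. This sum weighs abundant genes most. The median log2 fold change of the list was 0.0028, with 18 genes above zero and 17 below. Single genes without overlap were 4 higher and 5 lower, beside 34.9% of all genes tested. Fzd4, the receptor through which Norrin and Wnt7 ligands maintain the barrier, was down-regulated from 24.8, 24.4 and 21.5 CPM to 12.7, 12.4 and 13.0 CPM (log2 fold change -0.89, adjusted p = 0.00197 by edgeR's quasi-likelihood test). Fzd4 is also in the study's own list of genes that differ in these samples, so the list is not independent evidence for it. Reck, a co-receptor for Wnt7 ligands, fell by 0.34 on the log2 scale. Wnt7b, a ligand of the same pathway, was up-regulated by 0.40 on the log2 scale from 38.8, 35.2 and 44.7 CPM to 48.2, 52.1 and 56.1 CPM. Dll4, a Notch ligand of arterial and tip endothelium, was up-regulated by 0.65 on the log2 scale at low levels of 1.97 to 2.46 CPM in wild-type and 3.21 to 3.93 CPM in transgenic mice. The calls of Reck, Wnt7b and Dll4 were lost after GC correction (adjusted p from 0.0522 to 0.198 by the edgeR quasi-likelihood test), and that of Fzd4 was kept in all 18 alternatives run. With gene length offsets the list had 0 genes called higher, so the calls of Wnt7b and Dll4 were lost there too. It had 1 called higher with total counts or scaling by the upper quartile.

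Among 12 genes of the vascular basement membrane, 2 were lower, beside 764 of all 19087 genes tested. Nid2, which encodes nidogen-2, was reduced from 12.03, 11.7 and 11.6 CPM to 4.52, 6.99 and 6.49 CPM (log2 fold change -0.98). Lama5, which encodes the laminin alpha 5 chain, was reduced from 26.8, 26.6 and 21.3 CPM to 12.7, 13.5 and 14.9 CPM (log2 fold change -0.86). Both calls were kept after GC correction (adjusted p = 0.0283 and 0.00868 by edgeR's quasi-likelihood test). Other basement membrane genes differed less, and the median of the list was 0.045. That median was -0.021 without transgenic mouse 2, and 0.026 to 0.14 without any other mouse. Sparc, the most abundant of them per length, had a log2 fold change of 0.19 and overlapping genotypes. Nid2 and Lama5 are also made by other cells, and the part of the choroid plexus was not tested.

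The 10 calls among the endothelial, signalling and basement membrane lists were also followed as each mouse was left out. Calls over all genes, 591 higher and 764 lower with all mice, fell to 11 and 66 without wild-type mouse 1. They fell to 13 and 81 without wild-type mouse 2, to 19 and 89 without transgenic mouse 3 and to 62 and 130 without transgenic mouse 2. Losses among the 10 calls cannot be told apart from this general loss. Without wild-type mouse 1 or wild-type mouse 2, the call of Fzd4 was kept and the other 9 were lost (adjusted p from 0.0622 to 0.175 and from 0.0528 to 0.149 by edgeR's quasi-likelihood test). Without transgenic mouse 3, Fzd4 and Lama5 were kept, and without transgenic mouse 2 these and Cgnl1 and Nid2 were kept. Without transgenic mouse 1 the call of Palmd was lost, and without wild-type mouse 3 those of Dll4 and Egfl7 were lost.

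The most abundant gene of each list, per exon length, was also followed. Bsg, a partner of monocarboxylate transporters in endothelium and other cells, had 241 FPKM in wild-type mice and a log2 fold change of -0.20 without overlap of the genotypes (adjusted p = 0.0514, edgeR's quasi-likelihood test). Hey1, a Notch target of arterial endothelium, had 12.3 FPKM and a log2 fold change of 0.016. The transporter Slc6a20a of the pericyte list (10.4 FPKM) and the myosin light chain Myl9 of smooth muscle (15.4 FPKM) had log2 fold changes of 0.034 and -0.082. S1pr1, a receptor for sphingosine-1-phosphate, had 39.0 FPKM and a log2 fold change of -0.044. Dcn of the fibroblasts and Mrc1 of the macrophages had log2 fold changes of 0.23 and 0.20, and Hbb-bs of red blood cells had -0.27. None of the last 7 genes passed the test, and their genotypes overlapped.

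Markers of other cells at the vessel wall shared the order of the transgenic mice. The condition that mouse 2 was highest and mouse 1 lowest held in 61 of the 88 further vessel genes, in 10 of 10 fibroblast markers, in 5 of 5 markers of perivascular macrophages and in 5 of 5 microglial markers. It also held in 4 of 5 astrocyte markers. It held in 1 of 5 neuronal markers and in 2 of 20 choroid plexus markers. The summed level of the fibroblast markers was 274 to 369 CPM in wild-type mice and 184, 459 and 304 CPM in transgenic mice 1, 2 and 3. For the perivascular macrophage markers the same sums were 9.53 to 13.5 CPM and 4.24, 18.3 and 13.4 CPM. In the fibroblast and macrophage lists 0 genes were called, with 1 and 0 at an unadjusted p under 0.05. Red blood cell markers did not follow this order, with 0 of 4 tested genes. The cause of the common order was not tested.

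**Figure D5:**
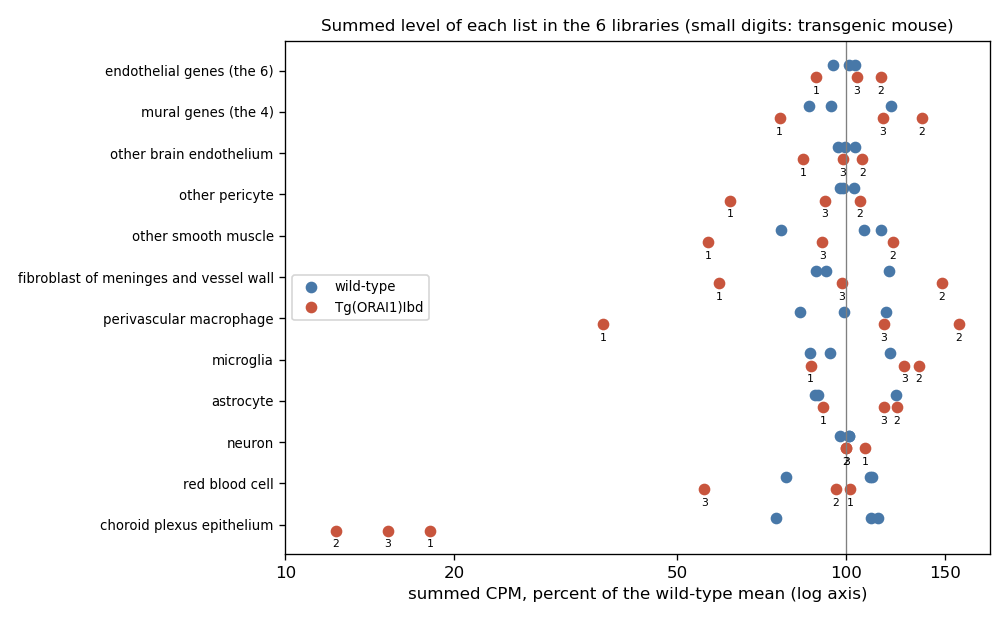
Summed CPM of 12 lists of genes in the 6 libraries, as a percent of the wild-type mean on a log axis, with small digits for the transgenic mouse. Transgenic mouse 1 lies lowest and mouse 2 highest of the transgenic mice in the endothelial, mural, fibroblast and macrophage sums, and of the 12 sums plotted only the choroid plexus sum does not overlap between genotypes.

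The genes with the most similar pattern over the 6 libraries were also listed, out of 14230 genes. The mean log2 CPM of the 6 endothelial genes was followed most closely by Eif3e (Pearson r = 0.997), Fcgr2b (0.996), Sox4 (0.994), Heatr5a (0.993) and Casp6 (0.992). For the mean of the 4 mural genes the closest were Ube2d2a (r = 0.997), Tmem255a, Ltbp1, Nudt10 and Upp2 (each 0.994). None of these 10 genes is in a marker list used here. With 6 libraries and this many genes, values this high describe the order of the mice and carry no test. Against the endothelial mean, the median r was 0.661 for the further endothelial markers and 0.682 for the further pericyte markers, compared with -0.018 for all genes. Not all vessel lists followed the mean, with 0.287 for the basement membrane and -0.096 for the ligands and receptors. For endothelium without a barrier, with 1 gene compared, the median r was -0.416. It was 0.803 for venous endothelium, 0.884 for microglia, 0.882 for fibroblasts and 0.837 for astrocytes, whereas it was -0.722 for neurons, -0.316 for hippocampal markers, -0.454 for red blood cells and -0.425 for choroid plexus.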

How the data were processed

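Hippocampal polyA RNA of 3 wild-type and 3 Tg(ORAI1)Ibd mice was sequenced. The authors filtered reads with Trimmomatic, aligned them to mm10 with STAR and deposited raw counts per gene from featureCounts 1.5.0-p1 (strand setting 2, minimum mapping quality 3, Ensembl 95), with no normalization. Such a mapping quality can keep reads that match 2 places, which bears on near-identical genes. Symbols were taken from GENCODE M21, which held 54809 of 54838 gene IDs.

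Counts were tested in edgeR 4.0.16 (R 4.3.3) with TMM scaling, a minimum count of 10 (filterByExpr) and the quasi-likelihood test between genotypes with no covariate. p-values were Benjamini-Hochberg adjusted over 19087 genes, with a threshold of 0.05. The study's own tool was not installed. Alternatives were DESeq2 1.42.0 and limma 3.58.1 (voom), other scalings and filters, offsets for GC content or gene length (loess span 0.5), replicate number as a block, and leaving out each mouse. The fits were tested on simulated data. CPM and FPKM used TMM-scaled library totals of 37467166 to 52376730. p-values measure the spread between 3 mice per genotype.

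Named genes were the 10 genes, the genes called in each other list (at most 4, by size), the gene with the highest wild-type FPKM of each list, Orai1, and the 5 genes most like each profile. The genes and lists were chosen with earlier results of these data known, so no set test was run. Lists of astrocytes and hippocampal neurons had 0 of 5 and 0 of 6 genes called, microglia 0 of 5, and neurons 1 of 5 (Slc17a7, log2 fold change 0.26). The neuron list had 0 called with GC offsets, with the replicate block, or on leaving out any mouse but transgenic mouse 1. The most abundant genes of these lists, Aldoc, Neurod6, C1qa and Camk2a, were not called. The result of 1 further list is not reported here.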

Additional observations from a re-analysis of the deposited data

How the results depend on the processing

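Of 120 values of the 10 genes under 12 alternatives other than leaving out a mouse, 109 kept their direction and their side of the threshold. Cldn5 kept its direction in all of them and its call in 7. It lost the call with the replicate block (0.64, adjusted p = 0.0559), GC offsets (0.52), GC offsets with replicate block (0.50), gene length offsets (0.57) and gene length offsets with replicate block (0.56), which left 0 of the 10 genes called higher. Slc2a1 then made 1 gene called lower, with GC offsets and the replicate block together. Slco1a4 changed sign with GC offsets (0.12), GC offsets with replicate block (0.11) and gene length offsets (0.012), and Pdgfrb with GC offsets (-0.076) and GC offsets with replicate block (-0.081). Neither gene was called in any of these.

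Over all genes, 591 were called higher and 764 lower. DESeq2's Wald test called 1055 and 1175, the replicate block 263 and 475, GC offsets 135 and 304, GC offsets with replicate block 101 and 322, gene length offsets 372 and 453, and gene length offsets with replicate block 160 and 316. Leaving out 1 mouse gave 11 to 466 higher and 66 to 683 lower, the fewest without wild-type mouse 1. It gave 0 to 1 of the 10 genes called higher and a median from -0.034 to 0.22. Ranges that crossed zero were -0.072 to 0.28 for Abcb1a, -0.0065 to 0.091 for Pdgfrb, -0.064 to 0.28 for Pecam1 and -0.13 to 0.17 for Slco1a4. With the replicate block the calls of Egfl7, Palmd, Reck and Dll4 were also lost (adjusted p from 0.0514 to 0.0749), and the venous list had 1 gene called higher. Esm1 was called lower (0.0119) with the block, but it passed the filter on low counts only through its wild-type counts. The same-number correlation of deviations was -0.357 to 0.399 over 3 pairs, with a mean of 0.143. The mean was -0.092 over 6 pairs with different numbers. With so few pairs, this cannot decide whether replicate numbers pair the samples. With 3 mice per genotype and this spread, small differences in Acta2, Vtn and Rgs5 were not detectable. Groups of 3 were not tested for single outlying mice.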
